A study of Mus musculus with 24 samples.

Results

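The miR-29 family was followed in mouse soleus through 3 real-time PCR assays, named mmu-miR-29a, mmu-miR-29b and mmu-miR-29c and called miR-29a, miR-29b and miR-29c from here on, out of 584 microRNA assays. The members were chosen by assay name, without an asterisk, and all 3 sat on card A of the 2 cards that each RNA was run on. The animals of interest were MCK-PPARa and MCK-PPARb transgenic mice, which carry extra PPARα or PPARβ in muscle. Both proteins are nuclear receptors for fatty acids that raise the expression of genes for burning fat. In these lines the promoter of the muscle creatine kinase gene, for which MCK stands, is active in muscle fibres and not in the fibroblasts or vessels between them. Their controls were non-transgenic littermates, called NTGa for the PPARa line and NTGb for the PPARb line. Each of the 4 groups held 3 male mice aged 12 weeks, 12 animals in all, and the labels call the replicates biological. The labels do not give the number of founder lines, so the transgene and the line cannot be told apart when the lines are set against each other. The study asked which microRNAs differ in muscle when either receptor is raised.

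A microRNA is a short RNA that pairs, mainly through its seed (bases 2 to 8), with messenger RNAs and lowers their output. The miR-29 family is best known for repressing genes of the extracellular matrix, among them collagens, elastin and fibrillin. In several tissues loss of miR-29 has been linked to fibrosis, and in skeletal muscle the family has also been linked to myoblast differentiation and to insulin signalling.

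All 3 members were found in the RefSeq table (build GRCm38.p6). Their mature strands are shown 5′ to 3′ because every comparison below rests on telling them apart, with the seed in capitals.
miR-29a: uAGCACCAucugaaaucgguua
miR-29b: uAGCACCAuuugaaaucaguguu
miR-29c: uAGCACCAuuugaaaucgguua
The seed was the same in all 3, and 0 of the other names among the 1679 mature microRNA names in the table carried it. Counted from the 5′ end, miR-29a and miR-29c differed at 1 of 22 positions, C10U, where the first base is that of miR-29a. miR-29c and miR-29b differed at 3 of 22 positions, G18A, U21G and A22U, with the base of miR-29c first, and miR-29b was 1 base longer, at 23. Any cross-reading between the miR-29a and miR-29c assays was not tested.

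The 3 mature strands come from 4 hairpin genes in 2 clusters. Mir29a (mature strand at chr6:31062673-31062694, minus strand) lies beside Mir29b-1 (chr6:31063025-31063047, minus strand), and the table lists no other gene over them. Mir29b-2 (chr1:195037091-195037113, plus strand) lies beside Mir29c (chr1:195037600-195037621, plus strand), and both fall within the long non-coding RNA gene A330023F24Rik. The Mir29b-1 and Mir29b-2 hairpins are shown, with the mature strand in capitals, because they give the same miR-29b, so the miR-29b assay adds up both clusters.
Mir29b-1: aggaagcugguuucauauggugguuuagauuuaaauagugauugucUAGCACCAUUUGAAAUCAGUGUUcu
Mir29b-2: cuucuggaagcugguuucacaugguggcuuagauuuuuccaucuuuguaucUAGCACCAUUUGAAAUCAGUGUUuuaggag

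Values are cycle thresholds (Ct), where a lower Ct means more template, and relative abundance on the log2 scale, which is the mean Ct of the 149 microRNAs of card A detected in all animals minus the Ct of the assay. A microRNA counted as detected at a Ct under 35, and 248 to 296 of the 584 assays were detected per animal. All 7 microRNAs of the skeletal muscle list were on the cards, and 6 of them were detected in all animals, miR-133a at a Ct of 17.5 or lower; liver miR-122 was detected in 1 of 12 animals. The seventh, miR-208b, was detected in 9 of 12 animals and in none of MCK-PPARa. MCK-PPARa replicate 1 stood apart on card B, with a median correlation of 0.87 with the other animals where those had 0.968 to 0.985, but not on card A, where it had 0.97.

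miR-29a and miR-29c were among the abundant microRNAs of the soleus, and miR-29b was not. All 3 were detected in 12 of 12 animals, so all 3 passed the filter on low values in every group. The Ct of miR-29a ran from 20.7 to 21.9, that of miR-29c from 22.9 to 24.1 and that of miR-29b from 29.6 to 31.3. By mean Ct they came at place 8, 16 and 105 of the 172 card A microRNAs with a Ct in all animals. An order of Ct between assays assumes that the assays amplify equally well. The spread between animals of a group was small for all 3, with a residual SD of 0.232 for miR-29a, 0.315 for miR-29b and 0.212 for miR-29c, against a median of 0.483 over the tested assays.

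miR-29a had relative abundances of 7.01, 6.83 and 6.47 in MCK-PPARa and of 6.75, 6.94 and 6.80 in NTGa. In MCK-PPARb it had 6.67, 6.68 and 6.27, and in NTGb 6.87, 6.32 and 6.54. The means were 6.77 ± 0.28 in MCK-PPARa and 6.83 ± 0.10 in NTGa, and 6.54 ± 0.23 in MCK-PPARb and 6.57 ± 0.28 in NTGb (SD, n = 3 each). In the order of these means, each group overlapped the next.

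miR-29b had relative abundances of -1.52, -1.68 and -1.99 in MCK-PPARa and of -1.79, -2.38 and -2.02 in NTGa. In MCK-PPARb it had -3.17, -2.34 and -3.06, and in NTGb -2.25, -2.35 and -1.93. Replicates 1 and 3 of MCK-PPARb lay below every other animal of the study, and replicate 2 of MCK-PPARb lay among the controls. The means were -1.73 ± 0.24 in MCK-PPARa and -2.06 ± 0.30 in NTGa, and -2.86 ± 0.45 in MCK-PPARb and -2.18 ± 0.22 in NTGb (SD, n = 3 each). Neighbours in the order of the means overlapped, MCK-PPARb and NTGb only just.

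miR-29c had relative abundances of 4.57, 4.45 and 4.16 in MCK-PPARa and of 4.77, 4.78 and 4.94 in NTGa. In MCK-PPARb it had 4.05, 4.55 and 4.39, and in NTGb 4.76, 4.27 and 4.61. The NTGa animals stood above all 9 others, though NTGb replicate 1, at 4.76, all but reached them, and the other 3 groups overlapped. The means were 4.39 ± 0.21 in MCK-PPARa and 4.83 ± 0.09 in NTGa, and 4.33 ± 0.25 in MCK-PPARb and 4.55 ± 0.25 in NTGb (SD, n = 3 each).

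**Figure D1:**
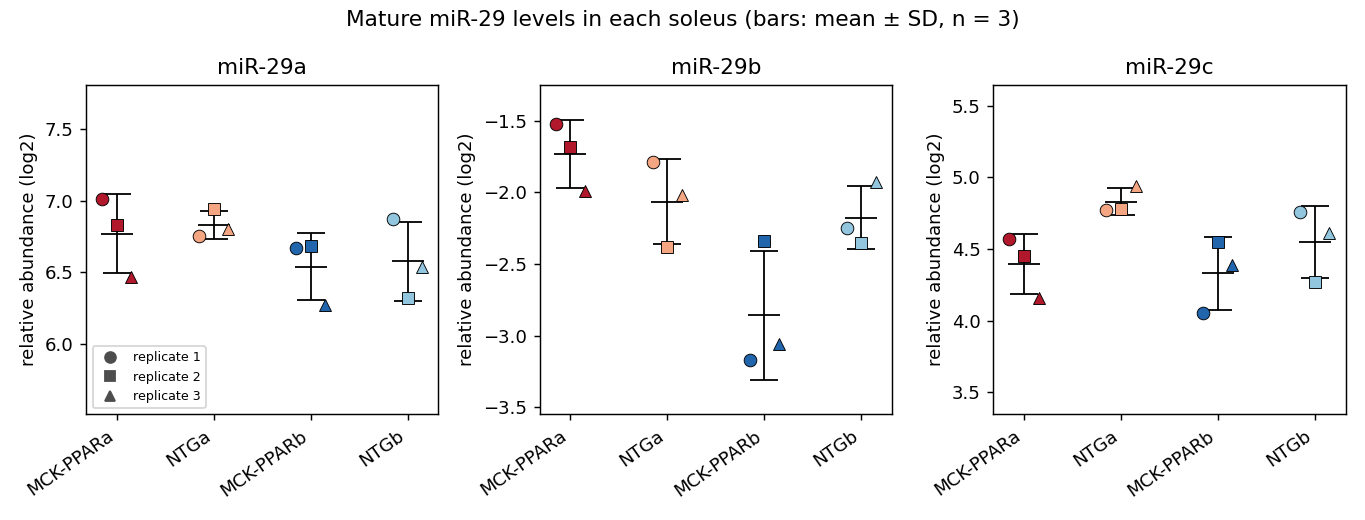
Relative abundance (log2) of miR-29a, miR-29b and miR-29c in each of 12 soleus muscles, with 1 symbol per animal and bars for the mean ± SD of 3 animals; the 3 panels span the same number of log2 units. Replicates 1 and 3 of MCK-PPARb, at -3.17 and -3.06, are the lowest miR-29b values, and the 3 NTGa animals, from 4.77 to 4.94, are the highest miR-29c values.

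Because the 3 assays shared a card, the difference between them within an animal does not depend on the reference of that animal, though quantile normalization, which is not a shift, does move it. miR-29c minus miR-29a was -2.44, -2.38 and -2.31 in MCK-PPARa, against -1.97, -2.15 and -1.86 in NTGa. In NTGb it was -2.11, -2.05 and -1.93, so the MCK-PPARa animals lay below all 6 control animals. Of the 11026 pairs among the 149 card A microRNAs detected in all animals, 11.7% had the MCK-PPARa animals all on one side of the controls. In MCK-PPARb the difference was -2.62, -2.13 and -1.88, which spread across the values of all other groups.

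miR-29b minus miR-29c was -6.08, -6.12 and -6.15 in MCK-PPARa, against -6.56, -7.16 and -6.96 in NTGa. It was -7.22, -6.89 and -7.45 in MCK-PPARb, against -7.01, -6.63 and -6.54 in NTGb. All 3 MCK-PPARa animals stood above the 9 others, and 5.51% of the 11026 pairs had the MCK-PPARa animals all on one side of the rest. The MCK-PPARa mean was -6.12 ± 0.032, and the means of the other groups were -6.90 ± 0.305 in NTGa, -7.19 ± 0.283 in MCK-PPARb and -6.73 ± 0.248 in NTGb (SD, n = 3 each). miR-29b minus miR-29a was -8.53, -8.51 and -8.46 in MCK-PPARa, against -8.54, -9.31 and -8.83 in NTGa, and it was -9.84, -9.02 and -9.33 in MCK-PPARb, against -9.12, -8.67 and -8.47 in NTGb. Here the MCK-PPARa animals overlapped NTGb and lay narrowly above those of NTGa, a separation in one direction or the other that 28.7% of the pairs had. These differences between members carry no test, and pairs that share a microRNA are not independent.

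**Figure D2:**
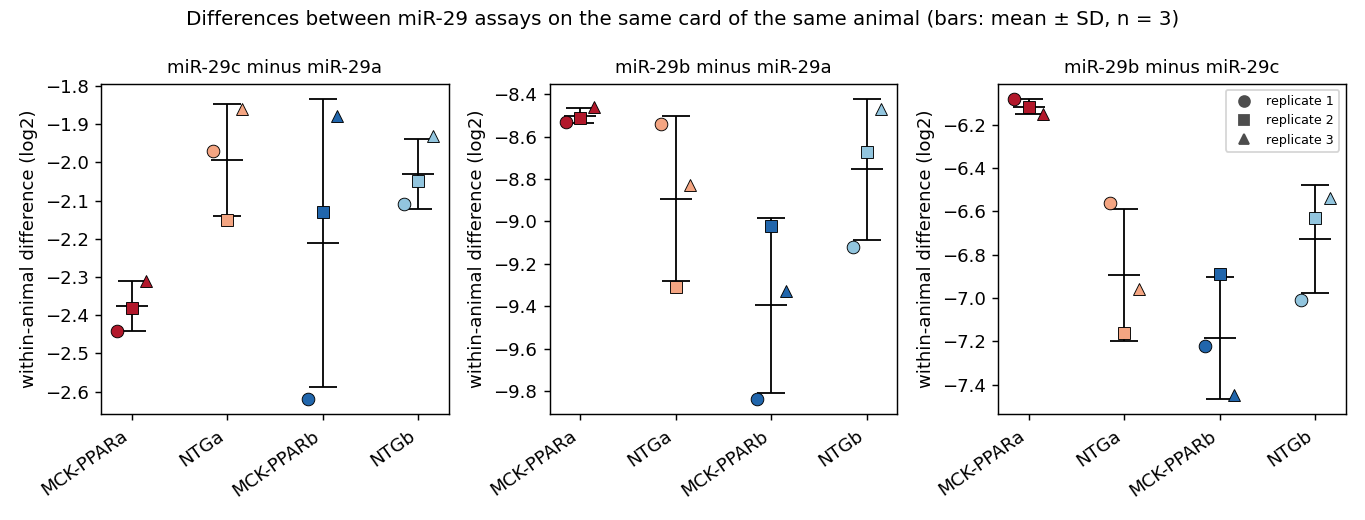
Within-animal differences in log2 abundance between pairs of miR-29 assays, by group, with 1 symbol per animal and bars for the mean ± SD of 3 animals; the vertical axes of the panels differ. In the right panel the 3 MCK-PPARa animals, at -6.15 to -6.08, lie above the other 9, which reach -6.54.

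In MCK-PPARa against NTGa, none of the miR-29 members passed the test. limma called 0 of 3, against 2.24% of the 268 assays tested on both cards, and at an unadjusted p under 0.05 it was also 0 of 3, against 16.4%. miR-29c stood 1.36-fold lower in MCK-PPARa, a log2 difference of -0.44 (95% interval -0.93 to 0.05, limma adjusted p = 0.363). Its groups did not overlap, as was so in the same direction for 10.8% of tested assays, and 39.9% of tested assays had a larger difference in either direction. miR-29b was at 0.33 (-0.28 to 0.94, adjusted p = 0.636), or 0.18 without NTGa replicate 2, and miR-29a at -0.06 (-0.57 to 0.45, adjusted p = 0.884). The median of the 3 members was -0.06, beside 0.12 over all tested assays.

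In MCK-PPARb against NTGb, miR-29b stood 1.60-fold lower and did not pass, while miR-29a and miR-29c lay closer to 0. limma called 0 of 3 members, against 0% of the 268 assays, and 1 of 3 had an unadjusted p under 0.05, against 8.58%. For miR-29b the log2 difference was -0.68 (95% interval -1.29 to -0.07, limma adjusted p = 0.516), and 16.0% of tested assays had a larger one. It was -0.36 with U6 snRNA as reference, under which the median of all assays stood at 0.33. miR-29c was at -0.22 (-0.71 to 0.27, adjusted p = 0.829) and miR-29a at -0.03 (-0.55 to 0.48, adjusted p = 0.961). The members' median was -0.22, beside 0.02 over all tested assays; it is the miR-29c value, which was -0.07 without MCK-PPARb replicate 1 and -0.11 without NTGb replicate 1.

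The effects of the transgenes were then set against each other in 1 contrast, MCK-PPARa minus NTGa less MCK-PPARb minus NTGb. miR-29b differed by 1.01 (95% interval 0.15 to 1.87, limma adjusted p = 0.313), which did not pass. It was 0.51 with U6 snRNA as reference, under which the median of all assays stood at -0.35. miR-29c was at -0.23 (-0.92 to 0.47, adjusted p = 0.879) and miR-29a at -0.03 (-0.75 to 0.70, adjusted p = 0.983). limma called 0 of 3 members, against 1.12% of the 268 assays, and 1 of 3 had an unadjusted p under 0.05, against 10.4%.

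The largest difference in the family lay between the transgenic groups, which share no animals. miR-29b was 2.19-fold higher in MCK-PPARa than in MCK-PPARb (log2 1.13, 95% interval 0.52 to 1.74, limma adjusted p = 0.0574), just short of the threshold of 0.05. All 3 MCK-PPARa animals, at -1.99 to -1.52, lay above the 3 MCK-PPARb animals, at -3.17 to -2.34, as was so in the same direction for 13.8% of tested assays, and miR-29b had place 9 of 268 by p. Over the alternatives its adjusted p ran from 0.0228 to 0.231, with log2 values of 0.95 to 1.39, and leaving out MCK-PPARb replicate 2, the animal that lay among the controls, gave 1.39 with an adjusted p of 0.0252. miR-29a was at 0.23 (-0.28 to 0.74, adjusted p = 0.651) and miR-29c at 0.06 (-0.43 to 0.55, adjusted p = 0.917). limma called 0 of 3 members, against 2.99% of the 268 assays, and 1 of 3 had an unadjusted p under 0.05, against 13.8%.

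Between the control groups miR-29b was at 0.12 in NTGa against NTGb (95% interval -0.49 to 0.73, limma adjusted p = 0.852). miR-29c was at 0.29 (-0.20 to 0.78, adjusted p = 0.558), with groups that did not overlap, as for 9.70% of tested assays in the same direction, and miR-29a at 0.25 (-0.26 to 0.77, adjusted p = 0.62). With U6 snRNA as reference, under which the median of all assays stood at 0.49, miR-29c was at 0.84 and miR-29a at 0.81 (limma adjusted p = 0.0676 for each). limma called 0 of 3 members, against 1.87% of the 268 assays, and 0 of 3 at an unadjusted p under 0.05, against 15.7%.

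**Figure D3:**
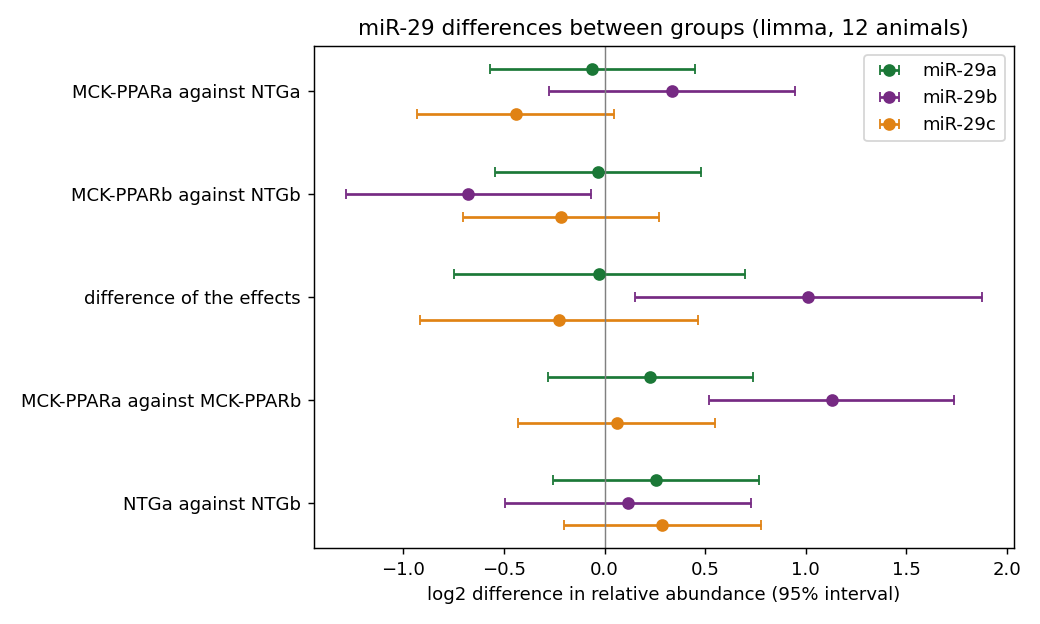
Log2 differences in relative abundance of the 3 miR-29 members, with 95% intervals from limma over 12 animals, in 5 comparisons; positive values mean higher in the group named first. The interval of miR-29b lies above 0 for MCK-PPARa against MCK-PPARb (0.52 to 1.74) and for the difference of the effects (0.15 to 1.87). It lies below 0 for MCK-PPARb against NTGb (-1.29 to -0.07), while the intervals of miR-29a cross 0 in all 5. The intervals are not adjusted for the number of assays, and no member passed the threshold on adjusted p.

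Card B also held assays for the passenger strands, the strands opposite the mature ones in each hairpin, which are usually degraded and are marked by an asterisk in these assay names. The RefSeq table gives the 5′ arms of Mir29a and Mir29c, shown because miR-29c* is the passenger strand whose values lay furthest apart between groups and because neither arm carries the seed of the family. The name miR-29b* does not say which of the Mir29b-1 and Mir29b-2 arms it reads.
miR-29a 5′ arm: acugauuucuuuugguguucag
miR-29c 5′ arm: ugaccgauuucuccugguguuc
Each of the mouse passenger assays was run in 2 wells per animal. Their Ct lay mostly between 30 and 35, where wells of the same animal differed by a median of 0.238 for miR-29a*, 0.768 for miR-29b* and 0.265 for miR-29c*, and by up to 1.84.

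miR-29c* had relative abundances of -3.13 and -4.14 in MCK-PPARa replicates 2 and 3, and was not detected in replicate 1, where 1 well had a Ct of 37.8 and the other none. It had -2.08, -3.16 and -3.64 in NTGa, -1.99, -2.23 and -2.26 in MCK-PPARb, and -2.32, -2.53 and -1.82 in NTGb. With the undetected value set to the floor of card B, -5.66, the log2 difference was -1.35 for MCK-PPARa against NTGa (limma adjusted p = 0.289). Without MCK-PPARa replicate 1, the animal that stood apart on this card, it was -0.69 (adjusted p = 0.563), and without NTGa replicate 1 it was -0.91. For MCK-PPARa against MCK-PPARb it was -2.15 (limma adjusted p = 0.0711), or -1.46 without that animal and -2.74 without replicate 2 (adjusted p = 0.163 and 0.0185). These groups did not overlap, as for 10.8% of tested assays in the same direction. A limit of detection of Ct 32 reduced these values to -0.18 and -0.51. In the difference of the effects miR-29c* was at -1.41 (adjusted p = 0.563), in MCK-PPARb against NTGb at 0.06 (adjusted p = 0.961), and in NTGa against NTGb at -0.74 (adjusted p = 0.561). The difference of the effects was -0.75 without MCK-PPARa replicate 1. NTGa against NTGb gave -1.18 without NTGa replicate 1 and -0.39 without NTGa replicate 3. Between the transgenic groups, mature miR-29c had 0.06 where its passenger strand had -2.15, and the difference between these was not tested.

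miR-29a* had -5.55, -1.45 and -3.03 in MCK-PPARa, against -1.77, -2.55 and -3.62 in NTGa, and -1.93, -1.76 and -2.79 in MCK-PPARb, against -2.09, -1.71 and -2.34 in NTGb. MCK-PPARa replicate 1 was again the lowest, and the log2 difference for MCK-PPARa against NTGa, -0.70 (limma adjusted p = 0.784), turned to 0.39 without it. miR-29b* had -4.51, -4.61 and -3.49 in MCK-PPARa, against -4.15, -3.42 and -4.17 in NTGa. In MCK-PPARb it was at the floor in replicate 1 and had -4.01 and -3.17 in the others, against -4.39, -3.04 and -4.38 in NTGb. Its differences of -0.29 and -0.35 did not pass (limma adjusted p = 0.868 and 0.882). The passenger-strand assays with rat names gave no Ct for miR-29b-1* in any of the 12 animals, and a Ct under 35 for miR-29b-2* in 2 animals, NTGa replicate 1 at 33.1 and MCK-PPARb replicate 1 at 34.5.

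**Figure D4:**
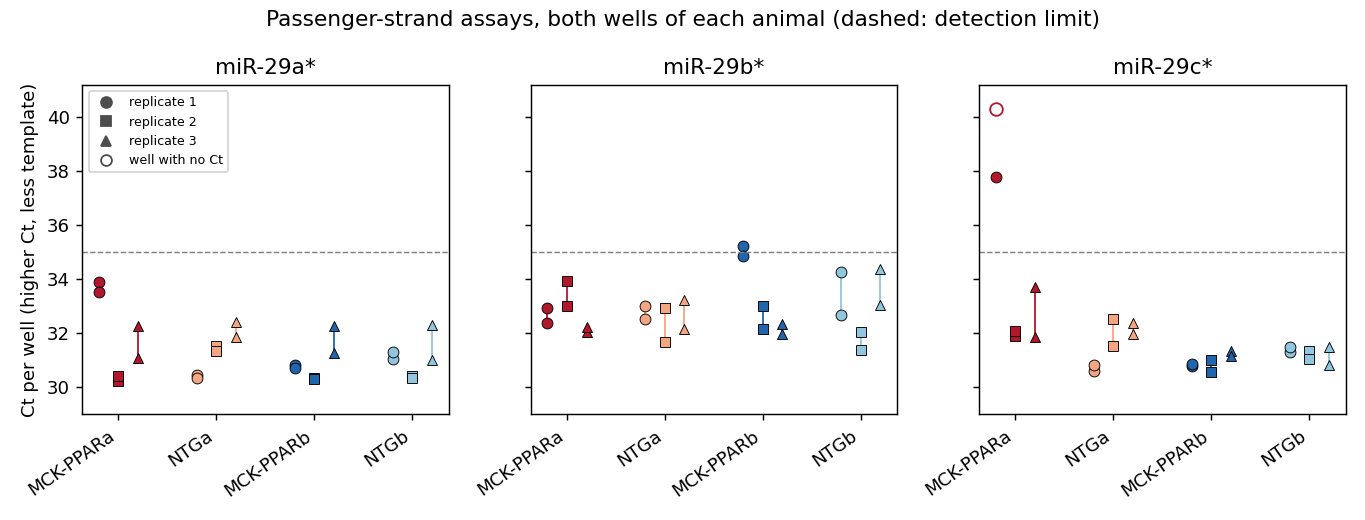
Ct per well of the miR-29a*, miR-29b* and miR-29c* assays on card B, with both wells of an animal joined by a line, a dashed line at the detection limit of Ct 35 and open symbols at the top for a well with no Ct. MCK-PPARa replicate 1 has the highest Ct for miR-29a* (mean 33.7) and for miR-29c* (1 well at 37.8 and 1 without a Ct).

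Other microRNAs linked to fibrosis were read beside the family in 2 lists, chosen from general knowledge of their roles. Of the 6 tested members of the fibrosis-promoting list, 1 rose in MCK-PPARa against NTGa, against 2.24% of all tested assays, and 2 had an unadjusted p under 0.05, against 16.4%. All 6 had positive values, as did 157 of the 268 assays, with a median of 0.42 beside 0.12 over all assays. The riser was miR-192, reported to promote fibrosis in kidney, at a log2 difference of 1.01 (SE 0.22, limma adjusted p = 0.0425). Its adjusted p was 0.055 to 0.204 when 1 animal was left out, and 0.177 with U6 snRNA as reference. miR-34a, a target of p53, was at 1.04 (limma adjusted p = 0.217) and miR-21, which is abundant in activated fibroblasts, at 0.55 (adjusted p = 0.582). In MCK-PPARb against NTGb, limma called 0 of the 6 (1 at an unadjusted p under 0.05, against 8.58% of all) and 2 of 6 had positive values, against 137 of 268 (median -0.17, beside 0.02), with miR-192 at 0.60, miR-214 at -0.69 and miR-34a at -0.66 (limma adjusted p from 0.49 to 0.559). miR-214 was at -0.16 without NTGb replicate 2, and miR-34a at -0.23 without MCK-PPARb replicate 2. Between the transgenic groups, miR-34a (1.90, limma adjusted p = 0.0159) and miR-192 (1.09, adjusted p = 0.0183) were higher in MCK-PPARa. These were 2 of the 6 tested members, against 2.99% of all tested assays. Both of these calls were lost under some alternatives, with adjusted p up to 0.145 and 0.104. In the difference of the effects miR-34a was at 1.7 and miR-192 at 0.41 (limma adjusted p = 0.205 and 0.699). The control groups also differed in miR-192, at 0.68 in NTGa against NTGb (limma adjusted p = 0.163).

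Of the list of other microRNAs reported to restrain fibrosis or matrix genes, 17 members were tested and limma called 0 in either transgene. At an unadjusted p under 0.05 it was 4 of 17 in MCK-PPARa against NTGa, where 16.4% of all assays were, and 1 of 17 in MCK-PPARb against NTGb, where 8.58% were. In MCK-PPARa against NTGa 13 of 17 had negative values, against 111 of 268, with a median of -0.07 beside 0.12 over all assays. miR-101a was at -0.81, miR-26b at -0.69 and miR-30d at -0.51 (limma adjusted p from 0.206 to 0.289). With both control groups pooled, miR-101a was at -0.43 and miR-26b at -0.42. In NTGa against NTGb miR-101a was at 0.77, miR-26b at 0.54 and miR-30d at 0.51 (limma adjusted p from 0.222 to 0.365). There 12 of 17 had positive values, against 128 of 268, with a median of 0.17 beside -0.03 over all assays. In MCK-PPARb against NTGb 13 of 17 had positive values, against 137 of 268, with a median of 0.13 beside 0.02, and let-7d was at 0.44, miR-200c at 2.07 and miR-24 at 0.43 (limma adjusted p from 0.532 to 0.559). miR-200c was detected in 9 of 12 animals, so part of its value rests on the floor, and it was at 0.98 without MCK-PPARb replicate 1. miR-24 was at 0.17 without NTGb replicate 2.

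Fibroblasts as well as muscle fibres hold miR-29, and in whole muscle fewer cells of a type cannot be told apart from less RNA per cell. The fibroblast and smooth muscle list had 5 of its 6 members on the cards, of which miR-199a-5p was detected in 5 of 12 animals and the other 4 in all; 3 of the 5 also stand on the fibrosis-promoting list. Its mean relative abundance ran from 0.79 to 1.17 in MCK-PPARa and from 0.72 to 0.80 in NTGa, and from 0.60 to 0.64 in MCK-PPARb and from 0.62 to 0.99 in NTGb. limma called 0 of the 4 tested members in either transgene, and 0 of 4 at an unadjusted p under 0.05. Over all tested assays the shares at that p were 16.4% in MCK-PPARa against NTGa and 8.58% in MCK-PPARb against NTGb. The medians of the 4 were 0.08 and -0.03 in these comparisons. In MCK-PPARa against MCK-PPARb limma called 0 of the 4, and 0 at an unadjusted p under 0.05, against 13.8% of tested assays. All 4 had positive values there, as did 141 of the 268 assays, with a median of 0.33 beside 0.03 over all assays. In NTGa against NTGb 3 of the 4 had positive values, with a median of 0.30 beside -0.03. The mean of the 6 leukocyte microRNAs ran from 0.77 to 0.97 in MCK-PPARa and from 0.55 to 0.80 in NTGa, and from 0.47 to 0.78 in MCK-PPARb and from 0.80 to 0.87 in NTGb. In MCK-PPARb, the group in which miR-29b was lowest, this mean reached 0.78, just short of the 0.80 where NTGb began, and it was not tested. Of the 6, miR-142-5p was detected in 7 of 12 animals, so part of these means rests on the floor. Of the 5 tested leukocyte members limma called 0 in either transgene, and 0 of 5 at an unadjusted p under 0.05, beside the same shares. In MCK-PPARa against MCK-PPARb 1 of the 5 had an unadjusted p under 0.05, against 13.8% of tested assays. This was miR-146a, at 0.56 (limma adjusted p = 0.279). All 5 had positive values there, as did 141 of the 268 assays. The mean of the 7 skeletal muscle microRNAs ran from 4.13 to 4.21 in MCK-PPARa and from 4.56 to 4.92 in NTGa. It ran from 5.27 to 5.41 in MCK-PPARb and from 4.56 to 5.53 in NTGb. This mean was not tested, and it includes miR-499 and miR-208b, whose differences in MCK-PPARa against NTGa were the largest of the 7. Of the 7, limma called 1 in MCK-PPARa against NTGa, against 2.24% of all tested assays. This was miR-499, which lies within a myosin gene and fell (log2 -3.66, limma adjusted p = 3.94e-05). In the same comparison miR-208b was at -1.31 and miR-486 at 0.68 (limma adjusted p = 0.334 and 0.206). The 7 held 3 positive and 4 negative values, with a median of -0.08 beside 0.12 over all assays. Both miR-499 (-4.26, limma adjusted p = 8.44e-06) and miR-208b (-4.12, adjusted p = 0.00278), also of a myosin gene, were lower in MCK-PPARa than in MCK-PPARb, the comparison in which miR-29b lay furthest apart. The miR-208b value rests on the floor, where all 3 MCK-PPARa animals stood. Between the transgenic groups 2 of the 7 were called, against 2.99% of all tested assays, and miR-486 was at 0.94 (limma adjusted p = 0.0583). There 6 of the 7 had negative values, against 127 of 268, with a median of -0.14. The control groups also differed in this direction, with miR-208b at -1.49, miR-499 at -0.69 and miR-206 at -0.67 in NTGa against NTGb (limma adjusted p from 0.2 to 0.303). Of the 7, 0 were called there, 3 had an unadjusted p under 0.05, against 15.7% of tested assays, and 6 had negative values, against 139 of 268. In MCK-PPARb against NTGb limma called 0 of the 7, and 0 at an unadjusted p under 0.05, against 8.58% of all tested assays. The part of what these 3 lists measure in the miR-29 values was not tested.

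**Figure D5:**
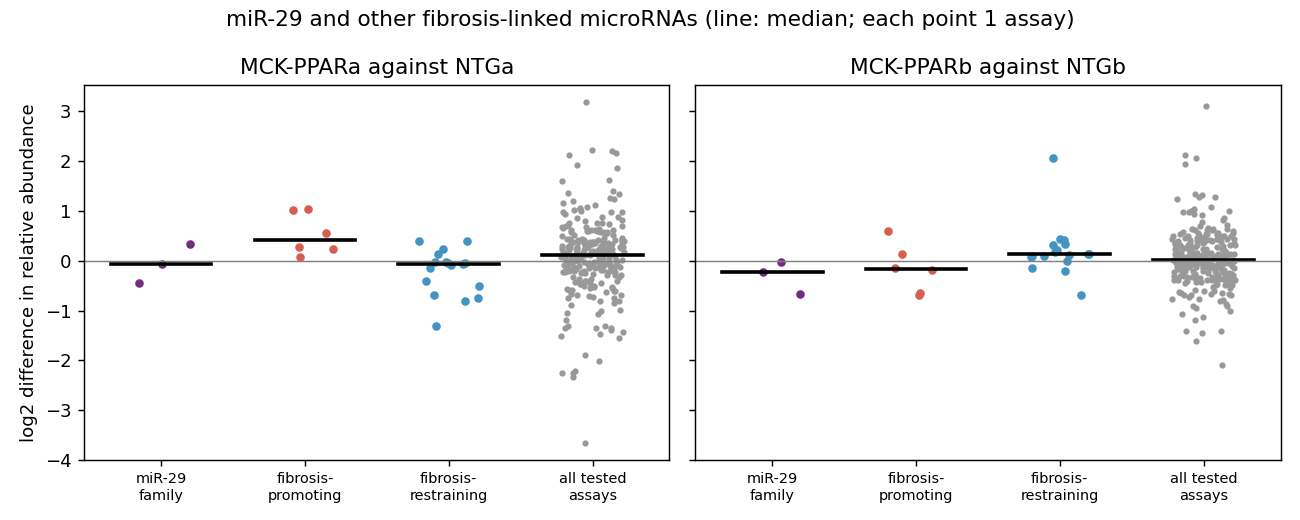
Log2 differences of the 3 miR-29 members, of 6 tested fibrosis-promoting and 17 tested fibrosis-restraining microRNAs and of all 268 tested assays, with 1 point per assay and a line at the median, for each transgene against its controls. The fibrosis-promoting median is 0.42 in MCK-PPARa against NTGa and -0.17 in MCK-PPARb against NTGb, and the miR-29 medians are -0.06 and -0.22.

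Across the 12 animals the members followed each other loosely, with a Pearson r of 0.56 for miR-29a and miR-29c, 0.48 for miR-29a and miR-29b and 0.44 for miR-29b and miR-29c (Spearman rho 0.62, 0.42 and 0.29). Once group means were taken out, r was 0.56 for miR-29a and miR-29c, 0.30 for miR-29a and miR-29b and 0.64 for miR-29b and miR-29c. Among the 205 other assays detected in all animals, the nearest to miR-29a were miR-350 (r = 0.863), miR-26a (0.754) and miR-204 (0.718). With no scaling these were 0.688, 0.907 and 0.853, and miR-350 stood at the floor in MCK-PPARb replicate 3. The nearest to miR-29b were miR-204 (0.794), miR-146a (0.706) and miR-186* (0.705), and the nearest to miR-29c were miR-30e (0.894), the rat-named miR-1 assay (0.781) and miR-26b (0.76). With group means taken out, r was 0.244 for miR-29b and miR-146a and 0.577 to 0.849 for the other 8 pairs. These correlations over 12 animals describe the data and carry no test, and assays of an animal share its RNA, its card and the scaling.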

How the data were processed

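Per the labels' protocols, soleus total RNA was extracted with RNAzol B. TaqMan real-time PCR (FAM dye, 40 cycles) then measured each animal on both cards. Per the file headers, the authors deposited values in another unit than counts, the raw Ct of every well, blank where there was none. Neither the software nor its threshold is named in the labels. Every column matched a sample by name.

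Replicate wells were averaged, and a blank well whose partner had a Ct entered as Ct 40. Relative abundance is a reference minus the Ct, the reference being the animal's mean over microRNAs found under Ct 35 in all 12 animals (149 for card A and 59 for card B). Undetected values took the highest floor of any animal (-6.56 for card A, -5.66 for card B), and detected values below that floor were raised to it. A fold assumes that template doubles each cycle. An assay was tested if some group had it detected in 3 of 3 animals, which left 268. Group means were fitted with limma 3.58.1 (lmFit, eBayes) in R 4.3.3 over all 12 animals, with p-values adjusted by Benjamini-Hochberg over the 268 and a threshold of 0.05. The fit was tested on simulated data. The miR-29 assays had 1 well each on card A, so their technical error was not measured. Alternatives covered the reference, scaling, detection limit and filter, the variance model, pooled controls, the replicate block and leaving out 1 animal. Every miR-29 assay is named, with up to 4 members of lowest p per fibrosis list, any called member, and for each miR-29 member the 3 assays of highest Pearson r. The members and lists were chosen with earlier results of these data known.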

Additional observations from a re-analysis of the deposited data

How the results depend on the processing

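No miR-29 member was called under any alternative except miR-29b in MCK-PPARa against MCK-PPARb. Of 291 values of the members under the alternatives 5 passed the threshold, all of them miR-29b there: at a detection limit of Ct 32 (log2 1.13, adjusted p = 0.0228), with no filter on detection (1.13, 0.0487), with only microRNAs detected in all 12 animals (1.13, 0.0454), with no scaling (1.24, 0.046) and without MCK-PPARb replicate 2 (1.39, 0.0252), so the count of members called was 1 in each and ranged from 0 to 1 when 1 animal was left out. Fewer assays are tested at Ct 32 and with detection in all animals, and why miR-29b passed was not tested for any of the 5. The range when 1 animal was left out was 0.97 to 1.39.

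The sign turned for 30 of the 291 values, all of results of 0.29 or less in size. The median of all assays itself moved with the scaling, over 0 to 0.21 in MCK-PPARa against NTGa, -0.05 to 0.33 in MCK-PPARb against NTGb, -0.35 to 0.26 in the difference of the effects, 0.01 to 0.16 in MCK-PPARa against MCK-PPARb and -0.22 to 0.49 in NTGa against NTGb. For miR-29a in MCK-PPARa against NTGa, it was 0.07 with pooled controls, 0.05 with the median reference, 0.07 with quantile normalization and -0.18 to 0.09 when 1 animal was left out. For miR-29a in MCK-PPARb against NTGb, it was 0.07 with the endogenous controls as reference, 0.01 with no scaling, 0.06 with quantile normalization, 0.28 with U6 snRNA and -0.16 to 0.11 when 1 animal was left out. In the difference of the effects miR-29a was 0.06 with animal weights, 0.01 at Ct 32, 0.27 with the median reference, 0.01 with quantile normalization and -0.17 to 0.12 when 1 animal was left out. In NTGa against NTGb the median reference gave -0.04 for miR-29a, -0.17 for miR-29b and 0 for miR-29c, and leaving out 1 animal gave -0.02 to 0.27 for miR-29b. miR-29c was 0.07 in the difference with the median reference, 0.10 in MCK-PPARb against NTGb with U6 snRNA, and in MCK-PPARa against MCK-PPARb -0.05 with animal weights, -0.08 with quantile normalization and -0.08 to 0.19 when 1 animal was left out.

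Among passenger strands, miR-29a* was 0.09 at Ct 32 in MCK-PPARa against NTGa (-1.65 to 0.39 when 1 animal was left out), and in MCK-PPARb against NTGb 0.01 with animal weights, 0.19 with pooled controls, 0.12 with no scaling and 0.27 with U6 snRNA (-0.32 to 0.20 when 1 animal was left out). miR-29b* was 0.09 with quantile normalization in MCK-PPARa against NTGa, and in MCK-PPARb against NTGb 0.20 with animal weights (-0.90 to 0.34 when 1 animal was left out). When 1 animal was left out, miR-29c* was -0.09 to 0.24 in MCK-PPARb against NTGb and -2.74 to -1.46 in MCK-PPARa against MCK-PPARb.

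Over all assays, the calls in NTGa against NTGb numbered 5, against 14 with animal weights, 29 with U6 snRNA, 9 with only these groups fitted, 1 with no filter, 0 at Ct 32, with all-animal detection and with quantile normalization, and 0 to 3 when 1 animal was left out. The difference of the effects had 3 calls, against 1 with the median reference, 7 with U6 snRNA and 2 to 6 when 1 animal was left out. MCK-PPARb against NTGb had 0, against 1 with animal weights and 0 to 1 when 1 animal was left out. The replicate block, a term for replicate numbers that the labels share across groups, left the member counts at 0. It gave miR-29b a limma adjusted p of 0.115 in MCK-PPARa against MCK-PPARb and 0.508 in MCK-PPARb against NTGb. miR-192 in MCK-PPARa against NTGa moved to 0.0561. Over all assays the block gave 9 calls in MCK-PPARa against NTGa, where the main fit had 6, and 6 in NTGa against NTGb, where it had 5. Same-numbered animals correlated at -0.25 to 0.37 once group means were taken out. This does not show that the numbers pair the animals, and with 3 animals per group it cannot exclude it. For the passenger strands the residual SD was 1.18 for miR-29a*, 0.834 for miR-29b* and 0.778 for miR-29c*. The median differences between wells of an animal were 0.238, 0.768 and 0.265. A spread of this size, at a Ct mostly of 30 to 35, limits what 3 animals per group can show, and its source was not tested.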
